A study of Mus musculus with 3 samples.

Results

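Parenchymal fibroblasts of the mouse pancreas were taken as single-cell barcodes with fibroblast transcripts and without those of the adventitial kind. A barcode counted as a fibroblast when raw UMIs (unique molecular identifiers, 1 per captured RNA molecule) of Col1a1, Col1a2, Col3a1, Dcn, Clec3b, Dpt and Gsn summed to at least 8 from at least 4 of these genes. At most 1 UMI of the mural genes Rgs5 and Myh11 and at most 1 of the endothelial genes Pecam1 and Cdh5 was allowed. It counted as parenchymal when Pi16, Mfap5 and Dpp4 had 0 UMIs, and as adventitial when they had any. Members were thus chosen by measured UMIs of these 14 genes, whose levels are given as a description. The rule kept 341 parenchymal fibroblasts of 36630 barcodes that passed the quality filters, beside 685 adventitial fibroblasts.

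The study profiled pancreas cells of 3 libraries with the 10x Chromium kit (3-prime end, version 3), to describe how exercise acts on the pancreas. The exercise library is labelled diabetic-Exercise, the diabetic library is labelled diabetic and sedentary, and the third is labelled none and sedentary. Male db/db mice, a strain with a mutated leptin receptor that grows obese and diabetic, ran on a treadmill, and their age is given as 6 weeks. For none the sources state neither genotype nor age, and for no library the number of animals. Below, exercise, diabetic and none stand for these libraries. With 1 library per group there is no replicate check and no test. Intervals are exact 95% limits that cover counting error only, and a difference between libraries cannot be told apart from a difference between animals or preparations.

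Fibroblasts build the connective tissue of the pancreas. The parenchymal kind lies among acini, lobules and islets and makes collagens, basement membrane parts, proteoglycans and secreted signals. The adventitial kind lies in sleeves around vessels and large ducts, and Pi16 and Dpp4 mark it in several mouse organs. Fibroblasts also react quickly to injury and cytokines, through immediate early transcription factors, chemokines and endoplasmic reticulum chaperones.

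The class held 66 cells in exercise, 178 cells in diabetic and 97 cells in none. These were 0.416% of kept barcodes in exercise (0.322 to 0.529), 1.53% in diabetic (1.32 to 1.78) and 1.06% in none (0.859 to 1.29). Kept barcodes numbered 15862 in exercise, 11599 in diabetic and 9169 in none and most of them carried mainly acinar RNA. Among barcodes with at most 50% of UMIs from acinar markers, the class made up 2.83% in exercise, 5.88% in diabetic and 5.64% in none. Among fibroblasts of both kinds the parenchymal share was 28.9% in exercise (23.1 to 35.3), 36.0% in diabetic (31.8 to 40.4) and 31.9% in none (26.7 to 37.5). These intervals overlap.

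**Figure D1:**
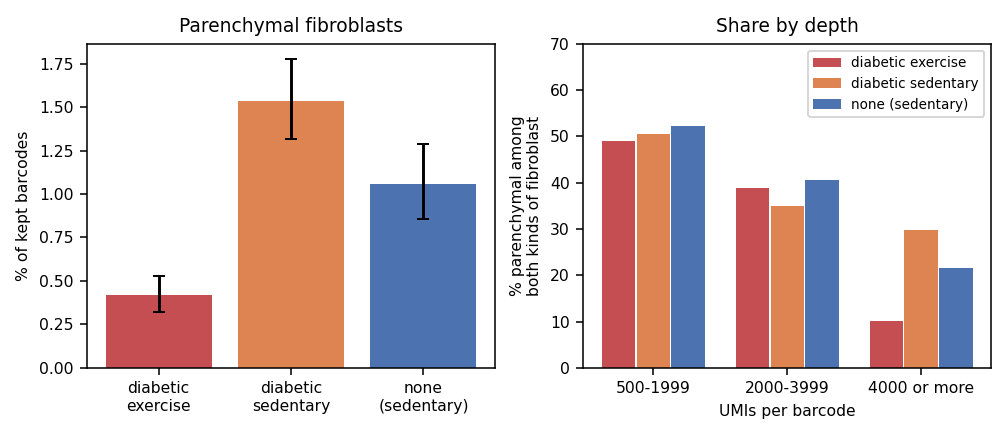
Left, parenchymal fibroblasts as a percentage of kept barcodes in each library, with exact 95% counting intervals. Right, the percentage of parenchymal cells among both kinds of fibroblast in 3 classes of UMIs per barcode; it is lowest in the deepest class of each library, 10.2% in exercise, 29.8% in diabetic and 21.6% in none.

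The split into kinds depended on depth. Below 2000 UMIs the parenchymal share of fibroblasts was 49.1% in exercise, 50.5% in diabetic and 52.2% in none. From 4000 UMIs it was 10.2% in exercise, 29.8% in diabetic and 21.6% in none. Parenchymal cells had a median of 2438.5 UMIs in exercise, 3077 in diabetic and 3335 in none, against adventitial medians of 4261 in exercise, 3699 in diabetic and 4326 in none. With cells thinned to 1000 UMIs, the parenchymal share of fibroblasts was 46.3% in exercise, 56.3% in diabetic and 52.3% in none. Thinning left out the shallower barcodes, 895 in exercise, 260 in diabetic and 102 in none. Of the members, 57 in exercise, 170 in diabetic and 95 in none were deep enough, so the loss differed between libraries. How many members are adventitial cells whose Pi16, Mfap5 or Dpp4 RNA was missed was not tested. Just outside the rule, 42 adventitial cells in exercise, 86 in diabetic and 59 in none had a single UMI of these 3 genes. Members with 8 to 10 UMIs of the fibroblast genes numbered 6 in exercise, 9 in diabetic and 4 in none, and barcodes with 5 to 7 such UMIs numbered 21 in exercise, 34 in diabetic and 11 in none.

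Genes that the rule did not use also marked part of the members as fibroblasts. Lum and Pdgfra, a proteoglycan and a growth factor receptor of fibroblasts, together gave 196 UMIs in members of exercise, 460 in diabetic and 149 in none. At least 2 UMIs of this pair were found in 54.5% of members in exercise, 50.6% in diabetic and 37.1% in none. Markers of T cells were at 0 in all 3 libraries. Endothelial markers outside the rule summed to 4 UMIs in exercise, 9 in diabetic and 4 in none. The rule's limit of 1 UMI on Pecam1 and Cdh5 favours such low counts. RNA of other cell types was present too. The 33 acinar markers made up a median of 37.1% of a member's UMIs in exercise, 31.7% in diabetic and 51.2% in none. The 10 ductal markers summed to 109 UMIs in exercise, 670 in diabetic and 416 in none. Of these, Clu gave 42 in exercise, 268 in diabetic and 275 in none. At least 2 ductal UMIs were found in 37.9% of members in exercise, 37.6% in diabetic and 43.3% in none. B cell markers summed to 0 UMIs in exercise, 2 in diabetic and 1105 in none, and 4 members of none carried at least 5 UMIs of B or plasma cell genes. The 6 mesothelial markers together reached 2 UMIs in 1 member of exercise, 5 of diabetic and 8 of none, and the 4 narrower ones Msln, Upk3b, Upk1b and Lrrn4 in 1 member of exercise, 0 of diabetic and 6 of none. The adipocyte genes Adipoq, Plin1, Cidec and Retn reached 2 UMIs in 1 member of none. The median mitochondrial share was 6.04% of UMIs in exercise, 3.80% in diabetic and 1.30% in none. Leaving out the cells with B or plasma cell, narrow mesothelial or adipocyte RNA, an alternative chosen after seeing the data, left 65 members in exercise, 178 in diabetic and 86 in none. Without these carriers 6 of 46 examined genes past 2-fold for diabetic over none no longer passed it, and neither did 3 of 60 for exercise over diabetic, and 12 genes for diabetic over none moved by more than 1.5-fold.

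**Figure D2:**
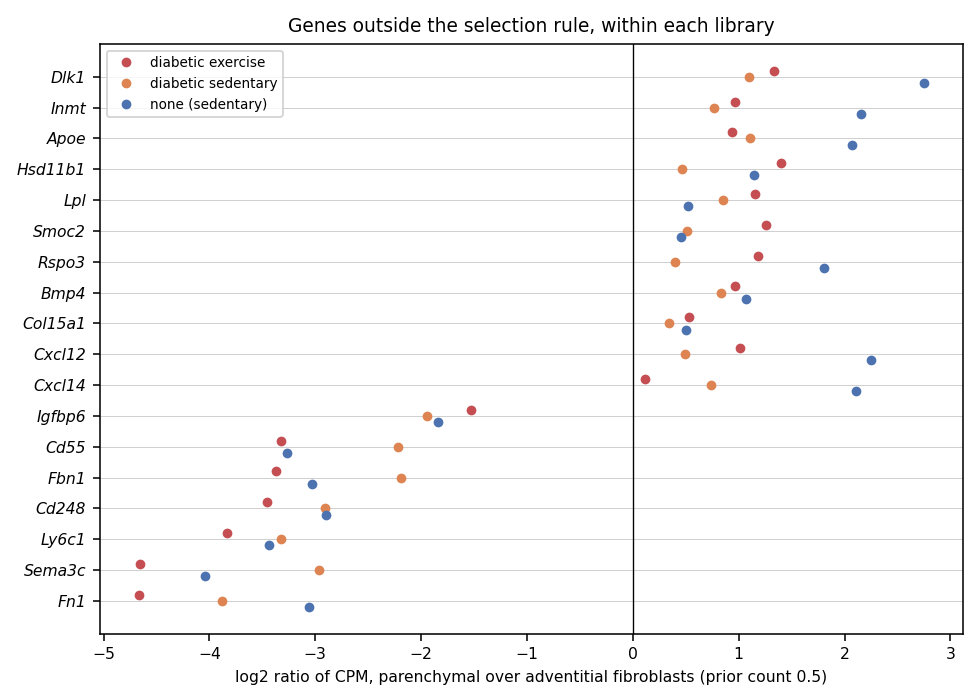
Log2 ratio of CPM in parenchymal over adventitial fibroblasts, 1 point per library, for 18 genes outside the selection rule. From Igfbp6 down all points lie below 0 and from Cxcl14 up all lie above 0; the cells were split on related genes, so the ratios are a description.

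Within each library the 2 kinds of fibroblast differed in genes beyond those of the rule. The ratios that follow are CPM (counts per 1000000 UMIs, scaled by edgeR's TMM factors) of parenchymal over adventitial cells; since the split itself sets up this contrast, they describe the cells and carry no test. Fn1, the gene of fibronectin, had a ratio of 0.0383 in exercise, 0.0671 in diabetic and 0.119 in none. Fbn1, which encodes the fibrillin of elastic microfibrils, had 0.0959 in exercise, 0.218 in diabetic and 0.122 in none. Sema3c, a secreted semaphorin, had 0.0370 in exercise, 0.125 in diabetic and 0.0582 in none, Cd248 (endosialin) 0.0894 in exercise, 0.132 in diabetic and 0.132 in none, and Cd55, a brake on complement, 0.0957 in exercise, 0.211 in diabetic and 0.0995 in none. All of these were lower in parenchymal cells of every library. The fibrillar collagens of the rule were lower too, with ratios for Col1a1 of 0.291 in exercise, 0.305 in diabetic and 0.484 in none, whereas Dcn, the proteoglycan decorin, stood at 1.13 in exercise, 1.0 in diabetic and 0.918 in none.

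Several genes chosen after their values were seen were higher in the parenchymal kind. Apoe, the lipid carrier apolipoprotein E, had a ratio of 1.91 in exercise, 2.16 in diabetic and 4.20 in none. Lpl, which frees fatty acids from lipoproteins, had 2.23 in exercise, 1.80 in diabetic and 1.44 in none. Hsd11b1, which regenerates active glucocorticoid inside cells, had 2.64 in exercise, 1.38 in diabetic and 2.21 in none, and Inmt, an N-methyltransferase, 1.95 in exercise, 1.70 in diabetic and 4.49 in none. Some of them encode secreted signals. Rspo3, an enhancer of Wnt signalling, had 2.29 in exercise, 1.32 in diabetic and 3.56 in none, and Bmp4, a bone morphogenetic protein, 1.96 in exercise, 1.78 in diabetic and 2.11 in none. Cxcl12, a chemokine that retains leukocytes and progenitors, had 2.02 in exercise, 1.41 in diabetic and 4.81 in none. The basement membrane genes Smoc2 and Col15a1 had ratios from 1.38 to 2.39 and from 1.27 to 1.45. In diabetic several of these ratios were closer to 1 than in none, as for Inmt, Cxcl12 and Cxcl14.

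Diabetic members were compared with none members across 3030 genes with at least 30 UMIs over both libraries. At least 2-fold higher in diabetic were 193 genes (6.37% of those measured), and at least 2-fold lower were 104 genes (3.43%). The median log2 ratio of all measured genes was 0.07. Genes that mark states of parenchymal fibroblasts were higher as a group: 12 of 13 measured members, of 14 listed, lay above 0, 3 of them at least 2-fold, with a median of 0.80. Without the carriers 2 were at least 2-fold higher, and the list's median of 0.51 lay 0.45 above that of all genes, short of the 0.5 by which a list counts as apart. The same list had a median of 1.29 in adventitial cells and 0.94 in other kept barcodes, and the differences between these classes were not tested. Of 17 listed adventitial genes outside the rule 5 were measured, and all 5 lay below 0, 1 of them at least 2-fold. With CPM over all UMIs 4 lay below 0. Their median of -0.62 lay 0.69 below that of all genes, and ranged from -1.22 to -0.15 over 12 alternatives. This list's median was -1.22 in adventitial cells and 0.77 in other kept barcodes.

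Among these state genes, Apod, a lipocalin that carries small lipids, was at 168 CPM in exercise, 224 CPM in diabetic and 72.4 CPM in none. Its diabetic over none ratio was 3.09 (1.98 to 5.03). Sparcl1, a matrix-binding glycoprotein, was at 488 CPM in exercise, 742 CPM in diabetic and 289 CPM in none, with a ratio of 2.56 (2.05 to 3.24). Exercise lay between diabetic and none for both genes. Cxcl14, a chemokine for myeloid cells, was at 618 CPM in exercise, 1216 CPM in diabetic and 607 CPM in none, a ratio of 2.0 (1.71 to 2.36), or 0.70 on the log2 scale without the carriers, and here exercise was level with none. Inmt, Hsd11b1, Smoc2, Htra3 and Gdf10 had ratios from 1.72 to 1.80, short of 2-fold. Penk, the enkephalin precursor found in some fibroblasts, was the member below 0, at 0.878 (0.724 to 1.07).

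The largest ratio under the naming rule belonged to Dlk1 (chr12:109452823-109463336, GRCm38), an imprinted gene whose protein restrains adipocyte formation. It gave 15 UMIs in exercise, 237 UMIs in diabetic and 17 UMIs in none, or 71.8 CPM in exercise, 376 CPM in diabetic and 53.5 CPM in none. The ratio was 7.03 (4.30 to 12.3) for diabetic over none and 0.191 (0.105 to 0.322) for exercise over diabetic, so the level in exercise was close to that in none. Its UMIs came from 6 cells in exercise, 58 in diabetic and 6 in none, and a single cell held 47% of them in exercise and likewise in none. Other kept barcodes had 0.764 CPM or less in any library. Adventitial cells showed the same order, with a diabetic over none ratio of 24.1 and an exercise over diabetic ratio of 0.165. Peg3, another imprinted gene, was at 33.5 CPM in exercise, 127 CPM in diabetic and 22 CPM in none, with a ratio of 5.76 (2.67 to 14.8) for diabetic over none and 0.264 (0.103 to 0.570) for exercise over diabetic. H19, the imprinted noncoding RNA, gave 4 UMIs in exercise, 60 UMIs in diabetic and 9 UMIs in none, but all its UMIs in exercise and in none came from 1 cell each.

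Among the 9 measured genes of the IGF (insulin-like growth factor) axis 1 was at least 2-fold higher in diabetic and 1 at least 2-fold lower. Their median was 0.66, and 0.48 without the carriers, which is 0.41 above that of all genes. The list's median was 0.61 in adventitial cells and 0.52 in other kept barcodes. Igfbp3, the main carrier of IGFs in blood, was at 206 CPM in exercise, 244 CPM in diabetic and 69.2 CPM in none, a diabetic over none ratio of 3.53 (2.25 to 5.79). Igfbp4, an inhibitor of IGF action, was at 1202 CPM in exercise, 1405 CPM in diabetic and 793 CPM in none, a ratio of 1.77 (1.54 to 2.05). Exercise lay near diabetic for both. Igfbp5 and Igfbp6 had ratios of 0.492 and 0.504, but without the carriers their log2 ratios were 1.07 and -0.12. Sfrp1, a secreted Wnt antagonist, was at 369 CPM in exercise, 314 CPM in diabetic and 135 CPM in none, a ratio of 2.32 (1.66 to 3.31), or 0.91 on the log2 scale without the carriers. It was the 1 gene past 2-fold among 6 measured of the BMP, Wnt and Hedgehog list, whose median was 0.36. Vegfd, a lymphatic growth factor, had 6 UMIs in exercise, 40 UMIs in diabetic and 3 UMIs in none, a diabetic over none ratio of 6.72 (2.14 to 34). Other genes that the naming rule picked as higher in diabetic were Thbs2, Psmc2, Adamtsl2, Hic1, Plau, Por and Fap, with ratios from 3.28 to 5.54 and 3 to 14 UMIs in none.

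**Figure D3:**
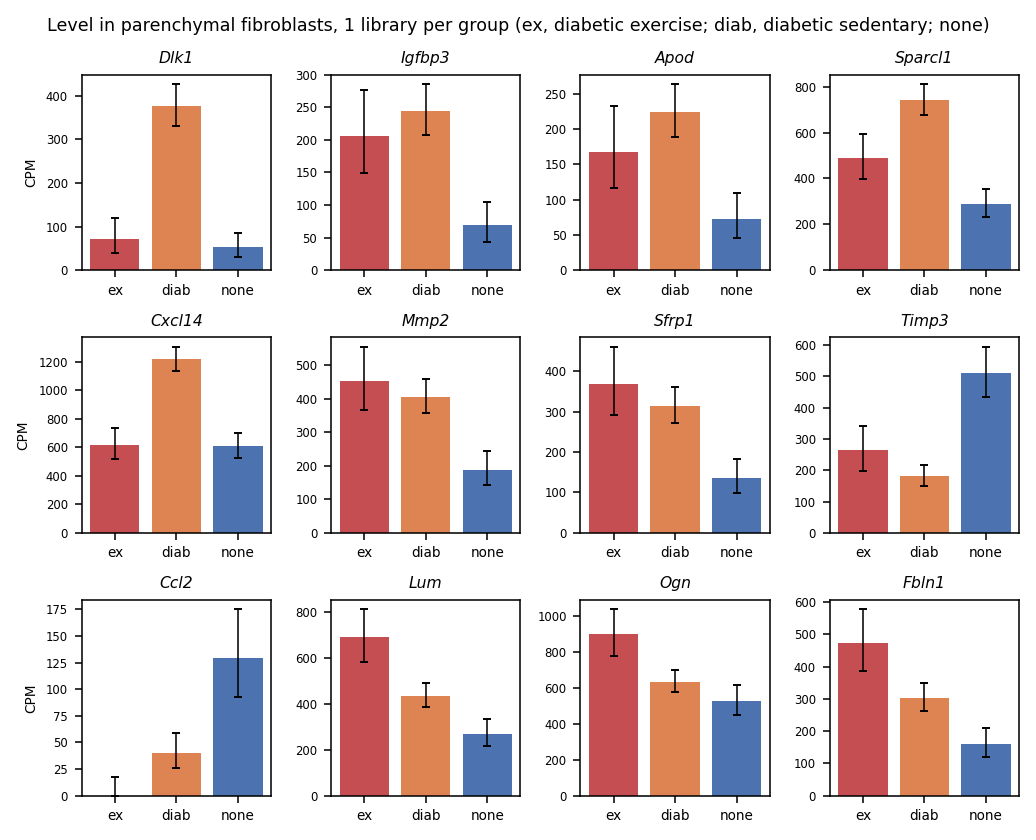
CPM of 12 genes in parenchymal fibroblasts of each library, with exact 95% Poisson intervals for counting error. Dlk1 and Cxcl14 are highest in diabetic, Timp3 and Ccl2 in none, and Lum, Ogn and Fbln1 in exercise.

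Matrix genes were described by list for diabetic over none. Of 13 measured basement membrane genes 0 were at least 2-fold higher and 1 was at least 2-fold lower, with a median of 0.43. Of 18 measured genes of collagen processing 3 were at least 2-fold higher, among them P3h3, with 4 UMIs in none. Of 17 measured genes of elastic fibres and glycoproteins 4 were at least 2-fold higher and 1 at least 2-fold lower, with a median of 0.37, but without the carriers 1 was at least 2-fold higher. Mmp2, the gelatinase that cuts denatured collagen and type IV collagen, was at 455 CPM in exercise, 406 CPM in diabetic and 189 CPM in none, a diabetic over none ratio of 2.15 (1.62 to 2.90), or 0.82 on the log2 scale without the carriers. Timp3, a matrix-bound inhibitor of such proteases, ran the other way at 263 CPM in exercise, 181 CPM in diabetic and 509.7 CPM in none, a ratio of 0.355 (0.277 to 0.453). Adventitial cells had 2.26 for Mmp2 and 0.674 for Timp3. The smooth muscle actin gene Acta2, the usual mark of myofibroblasts, gave 1 UMI in exercise, 4 UMIs in diabetic and 7 UMIs in none, and Postn gave 6 UMIs in exercise, 2 UMIs in diabetic and 2 UMIs in none, so neither was measured well enough for a ratio. Of 18 myofibroblast and activation genes, 6 passed the minimum of 30 UMIs. Of these 5 lay above 0, 2 were at least 2-fold higher and 0 at least 2-fold lower. Their median of 0.51 lay 0.44 above that of all genes, short of the 0.5 of a list apart, and was 0.23 without the carriers. The list's median was 1.13 in adventitial cells and 1.95 in other kept barcodes.

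Lower in diabetic than in none were several genes of immune cells and of stress. Cd74, H2-Aa, H2-Ab1 and Cd52, genes of antigen-presenting cells and lymphocytes, had 0 to 2 UMIs in exercise, 1 to 6 in diabetic and 36 to 272 in none. B cell markers were also found in none members, as given above. Without the carriers the log2 ratio was -3.60 for Cd74, -3.73 for H2-Aa, -1.71 for H2-Ab1 and -2.92 for Cd52. UMIs then numbered 6 in diabetic and 33 in none for Cd74, and 1 and 9 for H2-Aa. They numbered 4 and 6 for H2-Ab1 and 1 and 5 for Cd52. H2-Aa, H2-Ab1 and Cd52 thus fell short of the minimum of 30 UMIs for a measured gene. For Cav1, the caveolin of endothelial cells and adipocytes, the log2 ratio was -3.02 with the carriers. Without them it was -0.06, from 7 UMIs in diabetic and 3 in none. Ifi27l2a, an interferon-induced gene, was at 19.2 CPM in exercise, 44.4 CPM in diabetic and 305 CPM in none, a diabetic over none ratio of 0.145 (0.0920 to 0.224), and at -2.88 on the log2 scale without those cells. Fn1 was at 23.9 CPM in exercise, 30.1 CPM in diabetic and 129 CPM in none, a ratio of 0.234 (0.128 to 0.412), and a single cell held 27% of its UMIs in none. The naming rule also picked Ace, Trib1 and Thbd, with ratios from 0.260 to 0.296, and Lgals7, with 0 UMIs in exercise and in diabetic and 35 in none, of which 3 were left in none without the carriers. Hspb1, a small heat shock protein gene, had a ratio of 0.126 (0.0587 to 0.248). Without the carriers it was 0.335, from 11 UMIs in diabetic and 14 in none, again short of that minimum.

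The 10 measured chemokine and cytokine genes had a median of -0.63 for diabetic over none, and 3 of them were at least 2-fold lower and 1 at least 2-fold higher. Ccl2, which attracts monocytes, had 0 UMIs in exercise, 25 UMIs in diabetic and 41 UMIs in none, a diabetic over none ratio of 0.307 (0.179 to 0.518). Ccl7, a related chemokine, had 7 UMIs in exercise, 20 UMIs in diabetic and 31 UMIs in none, a ratio of 0.325 (0.176 to 0.589). Cxcl13, which attracts B cells, was seen in none alone, where 1 cell held 91% of its 177 UMIs. The median was 0.11 among genes with at least 100 UMIs and 0.14 after thinning to 1000 UMIs per cell, so its direction depends on the genes measured. Metallothioneins, zinc-binding proteins induced by stress and glucocorticoids, were lower in diabetic: Mt1 was at 1412 CPM in exercise, 2504 CPM in diabetic and 5292 CPM in none, a ratio of 0.473 (0.441 to 0.507). The rest of the kept barcodes had a ratio of 0.249 for Mt1.

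Exercise members were compared with diabetic members across 2604 genes. At least 2-fold higher in exercise were 42 genes (1.61%) and at least 2-fold lower were 332 genes (12.7%). The median log2 ratio of all genes was -0.26, and the split depended on scaling: with CPM over all UMIs in place of TMM, 193 genes were higher and 131 lower, and the median was 0.15. List medians are therefore read against the median of all genes under the same scaling. Exercise also had the fewest members and the lowest depth per member. The UMI minimum for a measured gene is summed over both libraries. Members gave 168595 UMIs in exercise and 682157 in diabetic. The split depended on this minimum too. Of the genes past 2-fold with TMM scaling, 11.2% were higher in exercise. This share was 27.6% with a minimum of 10 UMIs (455 higher, 1191 lower). With a minimum of 100 UMIs it was 5.41% (4 higher, 70 lower).

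**Figure D4:**
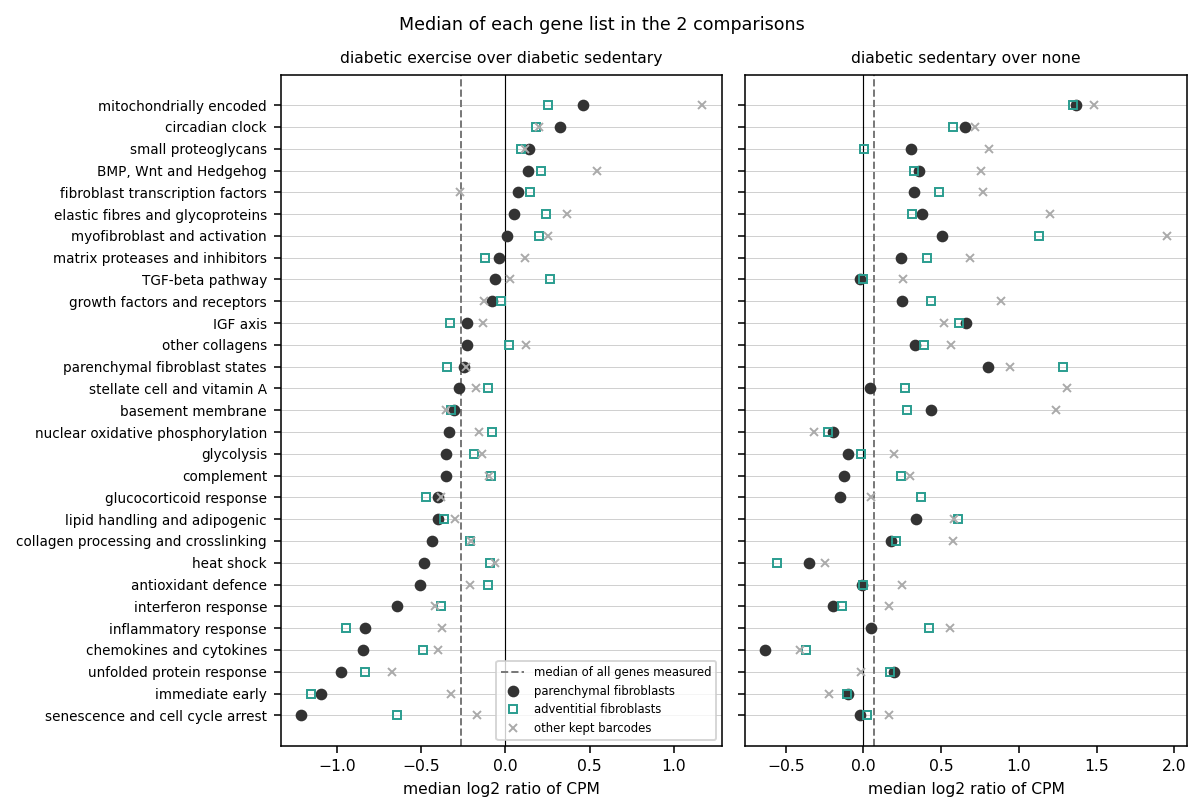
Median log2 ratio of each gene list with at least 5 measured members, for exercise over diabetic (left) and diabetic over none (right), in parenchymal fibroblasts (filled circles), adventitial fibroblasts (squares) and other kept barcodes (crosses). On the left the immediate early, unfolded protein response, inflammatory and chemokine lists lie 0.57 to 0.83 below the median of all genes in parenchymal cells (dashed line).

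Immediate early genes, the transcription factors and regulators that cells induce within minutes of a stimulus, were lower in exercise. Of 22 listed genes 19 were measured. The log2 ratio was below 0 for 18 of these, 11 were at least 2-fold lower and 0 at least 2-fold higher. Their median of -1.09 lay 0.83 below that of all genes, and with CPM over all UMIs it lay 0.82 below, with 6 genes at least 2-fold lower. Jun (chr4:95049034-95052222), a subunit of the AP-1 factor, was at 522 CPM in exercise, 1919 CPM in diabetic and 1762 CPM in none, an exercise over diabetic ratio of 0.272 (0.221 to 0.331). Fos, its partner in AP-1, was at 780.4 CPM in exercise, 2181 CPM in diabetic and 1806 CPM in none, a ratio of 0.358 (0.302 to 0.421). Diabetic and none differed little for both, with diabetic over none ratios of 1.09 (0.984 to 1.21) and 1.21 (1.09 to 1.33). Btg2, an antiproliferative gene, had an exercise over diabetic ratio of 0.390 (0.306 to 0.490), Zfp36, whose protein destabilises cytokine RNAs, 0.481 (0.389 to 0.591), and Klf4, a Krüppel-like factor, 0.338 (0.214 to 0.513).

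The difference in immediate early genes was shared with adventitial cells, where the list median was -1.15 and that of all genes -0.06. In other kept barcodes the list median was -0.33. The median of all genes is not given for that class, so its difference was not compared in size. For Jun the exercise over diabetic ratio was 0.368 in adventitial cells and 0.746 in other barcodes, and for Fos it was 0.409 in adventitial cells and 0.890 in other barcodes.

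Chaperones and folding enzymes of the endoplasmic reticulum were lower in exercise as well. Of 17 measured genes of the unfolded protein response, out of 20 listed, 16 lay below 0 and 8 were at least 2-fold lower, with a median of -0.98, or 0.71 below that of all genes under either scaling. With CPM over all UMIs 12 of the 17 lay below 0 and 5 were at least 2-fold lower. The list lay below 0 in the other classes too, with a median of -0.83 in adventitial cells and -0.67 in other kept barcodes. Hsp90b1, the chaperone GRP94, was at 364 CPM in exercise, 1097 CPM in diabetic and 761 CPM in none, an exercise over diabetic ratio of 0.332 (0.258 to 0.421). Calr, the calcium-binding lectin chaperone calreticulin, was at 163 CPM in exercise, 536 CPM in diabetic and 406 CPM in none, a ratio of 0.304 (0.207 to 0.433). Pdia3, a disulfide isomerase, was at 168 CPM in exercise, 503 CPM in diabetic and 293 CPM in none, a ratio of 0.333 (0.228 to 0.473). Hspa5, the chaperone BiP, was at 220.2 CPM in exercise, 538 CPM in diabetic and 472 CPM in none, a ratio of 0.410 (0.294 to 0.559). In each of these, exercise was lowest and diabetic highest, and the exercise and diabetic intervals do not meet. Acinar cells are rich in such RNA: of the 339 Hspa5 UMIs in diabetic, 102 were expected from acinar RNA, against 58 of 692 for Hsp90b1 and 14 of 317 for Pdia3. With the expected acinar RNA subtracted the log2 ratios were -1.57 for Hspa5, -1.68 for Hsp90b1 and -1.83 for Calr. Herpud1, a degradation factor of the same compartment, was the member above 0, at 1.23 (0.846 to 1.76).

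Several of these genes share a promoter element. Within the RefSeq window from 250 bases before to 50 bases after the transcription start (GRCm38.p6), 7 of 18 listed genes with a promoter entry held the endoplasmic reticulum stress response element, spelled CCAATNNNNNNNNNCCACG and searched on both strands. Of all 32851 promoter windows of the same length, 39 (0.119%) held it, while the 18 listed genes had 19 windows. The list was made of genes of this stress response and the element was chosen after values were seen. These rates are therefore no test. The factors NF-Y, ATF6 and XBP1 are known to bind this element. The 7 genes were Calr, Canx, Creld2, Dnajc3, Hsp90b1, Hspa5 and Pdia6, and their exercise over diabetic ratios ran from 0.178 for Creld2 to 0.831 for Canx. Listed genes without it, such as Pdia3 and Hyou1, had low ratios too, and a match is a description of the letters alone. The 4 windows below, 5' to 3' on the strand of the gene, show the element in capitals in genes with lower levels in exercise.
Hspa5 promoter, plus strand, chr2:34771840-34772139: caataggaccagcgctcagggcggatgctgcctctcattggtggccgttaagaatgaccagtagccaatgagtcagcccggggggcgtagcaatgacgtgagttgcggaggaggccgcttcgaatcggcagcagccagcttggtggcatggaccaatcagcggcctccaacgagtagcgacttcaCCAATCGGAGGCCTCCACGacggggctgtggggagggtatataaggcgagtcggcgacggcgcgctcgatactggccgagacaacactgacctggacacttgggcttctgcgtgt
Hsp90b1 promoter, minus strand, chr10:86705395-86705694: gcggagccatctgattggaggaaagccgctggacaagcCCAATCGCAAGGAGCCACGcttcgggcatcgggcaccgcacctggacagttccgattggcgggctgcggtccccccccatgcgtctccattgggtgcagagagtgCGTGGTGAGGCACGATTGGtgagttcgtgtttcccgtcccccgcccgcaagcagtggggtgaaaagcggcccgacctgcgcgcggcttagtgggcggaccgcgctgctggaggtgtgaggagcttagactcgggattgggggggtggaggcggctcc
Calr promoter, minus strand, chr8:84846882-84847181: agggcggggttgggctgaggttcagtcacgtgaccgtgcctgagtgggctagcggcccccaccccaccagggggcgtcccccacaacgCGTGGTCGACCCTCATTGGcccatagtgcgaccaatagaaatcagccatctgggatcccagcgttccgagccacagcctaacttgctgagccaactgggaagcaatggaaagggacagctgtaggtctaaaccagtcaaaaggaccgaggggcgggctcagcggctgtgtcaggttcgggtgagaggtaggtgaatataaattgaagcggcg
Creld2 promoter, plus strand, chr15:88819396-88819695: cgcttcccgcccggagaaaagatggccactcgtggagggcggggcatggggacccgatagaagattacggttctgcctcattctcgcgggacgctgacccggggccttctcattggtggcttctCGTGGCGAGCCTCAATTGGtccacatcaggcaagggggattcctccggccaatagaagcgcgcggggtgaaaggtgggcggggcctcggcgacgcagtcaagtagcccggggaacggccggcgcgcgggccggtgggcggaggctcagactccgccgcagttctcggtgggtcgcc
Hspa5, Calr and Creld2 hold 1 element each and Hsp90b1 holds 2. In Calr and Creld2 it lies in reverse orientation, read as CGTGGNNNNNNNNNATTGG.

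**Figure D5:**
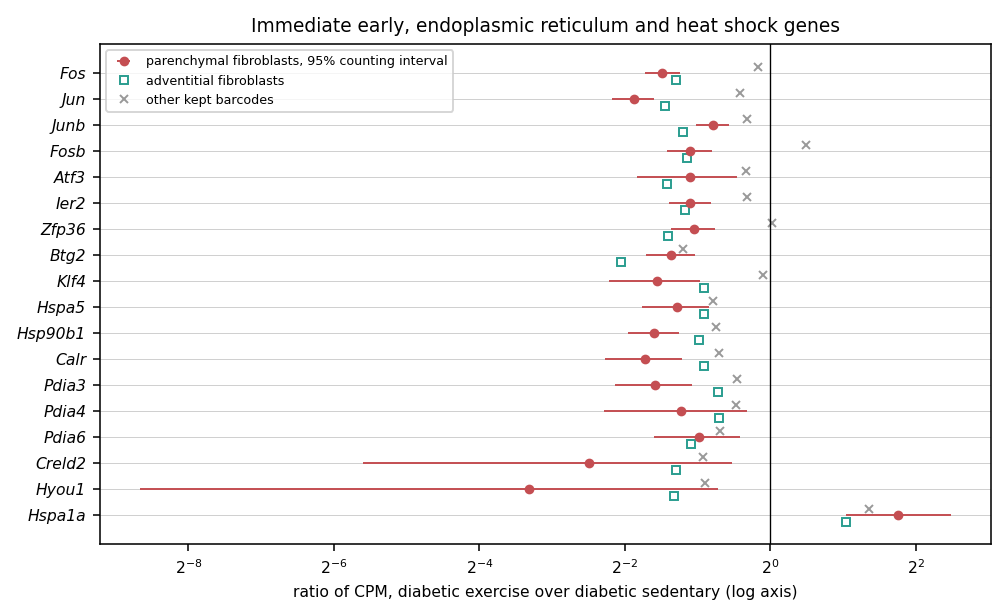
Ratio of CPM in exercise over diabetic on a log axis for immediate early genes, endoplasmic reticulum genes and Hspa1a, with 95% counting intervals for parenchymal cells (circles) beside adventitial cells (squares) and other kept barcodes (crosses). The first 17 genes lie below 1 in parenchymal cells and Hspa1a lies above 1.

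Inflammatory genes followed. Of 13 measured members of the inflammatory response list 12 lay below 0 and 5 were at least 2-fold lower in exercise, with a median of -0.83, or 0.57 below that of all genes (-0.94 in adventitial cells). With CPM over all UMIs 2 were at least 2-fold lower, and the median of -0.41 lay 0.56 below that of all genes. Cebpb, a factor of the acute phase response, was at 144 CPM in exercise, 376 CPM in diabetic and 229.7 CPM in none, an exercise over diabetic ratio of 0.382 (0.252 to 0.560). Irf1, an interferon regulatory factor, had 5 UMIs in exercise, 60 UMIs in diabetic and 29 UMIs in none, a ratio of 0.252 (0.0788 to 0.620). Icam1, an adhesion molecule for leukocytes, had 2 UMIs in exercise, 33 UMIs in diabetic and 20 UMIs in none, a ratio of 0.183 (0.0213 to 0.715), against 0.877 in adventitial cells. Cxcl1, which attracts neutrophils, was at 52.7 CPM in exercise, 252 CPM in diabetic and 233 CPM in none, a ratio of 0.209 (0.102 to 0.384). Ccl2 and Cxcl10, a chemokine induced by interferon, had 0 UMIs in exercise against 25 and 26 UMIs in diabetic. With the floor of 3 UMIs per library, they were at least 2.76-fold and 2.87-fold lower. C3, the central complement component, was at 679.8 CPM in exercise, 1548 CPM in diabetic and 1687 CPM in none, a ratio of 0.439 (0.366 to 0.524). Of the 5 measured genes of cell cycle arrest, 3 were at least 2-fold lower, with ratios from 0.245 to 0.421 for Gadd45b, Gadd45g and Trp53inp1, which stress also induces.

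Heat shock genes did not all move the same way. For exercise over diabetic 9 of 12 measured genes lay below 0, 3 were at least 2-fold lower and 1 at least 2-fold higher. Their median of -0.48 lay 0.22 below that of all genes, and with CPM over all UMIs 7 of the 12 lay below 0. For diabetic over none 9 of 13 lay below 0, 4 at least 2-fold lower and 0 at least 2-fold higher, with a median of -0.35. Hspa1a (chr17:34969190-34972156), the inducible HSP70, was at 177 CPM in exercise, 52.3 CPM in diabetic and 148 CPM in none. Its exercise over diabetic ratio of 3.38 (2.06 to 5.58) was the largest that the naming rule picked, and its diabetic over none ratio was 0.354 (0.220 to 0.564), so diabetic was low against both. Hsp90ab1, a constitutive cytosolic chaperone, ran the other way, at 0.403 (0.289 to 0.551) for exercise over diabetic, as did Dnajb1, a cofactor of HSP70, at 0.384 (0.148 to 0.846). Hspa1a can share reads with its near-identical copy Hspa1b, whose ratio was 1.67, so the division of reads between both is uncertain.

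Among matrix genes, the small proteoglycans had a median of 0.14 for exercise over diabetic, 0.40 above that of all genes, with 4 of 7 measured genes above 0, 0 at least 2-fold higher and 1 at least 2-fold lower. Lum, which spaces collagen fibrils, was at 689 CPM in exercise, 435 CPM in diabetic and 271 CPM in none, an exercise over diabetic ratio of 1.59 (1.29 to 1.95). Ogn, osteoglycin, was at 900.1 CPM in exercise, 636 CPM in diabetic and 529 CPM in none, a ratio of 1.42 (1.18 to 1.69), and Fbln1, which binds fibronectin and elastin, at 474 CPM in exercise, 303 CPM in diabetic and 160.5 CPM in none, a ratio of 1.56 (1.21 to 2.0). In all of these exercise was highest and none lowest. Podn and Col14a1, which also bind collagen fibrils, had ratios of 1.94 (1.22 to 3.04) and 1.75 (1.20 to 2.54). In adventitial cells the ratios were closer to 1, at 1.23 for Lum, 1.08 for Ogn and 1.13 for Fbln1. With TMM scaling 0 of these 5 genes reached 2-fold in members.

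The basement membrane list lay close to all genes for exercise over diabetic. Its median was -0.30, 0 of 12 measured genes were at least 2-fold lower, and with CPM over all UMIs 7 of the 12 lay above 0. Single genes had lower levels in exercise. Col4a1 and Col4a2, the chains of the type IV collagen network, did so under either scaling. Col4a1 was at 498 CPM in exercise against 931 CPM in diabetic, and Col4a2 at 321 CPM in exercise against 571 CPM in diabetic. Their exercise over diabetic ratios were 0.535 (0.430 to 0.660) and 0.562 (0.426 to 0.731), and adventitial cells had 0.518 and 0.504. Thbs1, a glycoprotein that activates latent TGF-beta, was at 316 CPM in exercise, 866 CPM in diabetic and 771 CPM in none, a ratio of 0.365 (0.278 to 0.472). Col5a3, a chain of type V collagen, had a ratio of 0.260 (0.109 to 0.533). Adamts4 (chr1:171250421-171260637), a protease of the proteoglycan aggrecan, had 0 UMIs in exercise, 56 UMIs in diabetic and 19 UMIs in none, and was at least 6.18-fold lower in exercise than in diabetic. In adventitial cells its ratio was 0.0423.

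Apoe and Lpl, described above as higher in the parenchymal kind, had lower levels in exercise than in diabetic. Apoe was at 1101 CPM in exercise, 2084 CPM in diabetic and 1202 CPM in none, an exercise over diabetic ratio of 0.528 (0.457 to 0.608), and Lpl at 1139 CPM in exercise, 1914 CPM in diabetic and 1378 CPM in none, a ratio of 0.595 (0.516 to 0.685). Of 13 measured lipid genes 11 lay below 0, with a median of -0.40, which is 0.14 below that of all genes. With CPM over all UMIs 5 of the 13 lay below 0 and the median was 0.022, so the direction of the list depends on the scaling. Zbtb16, a transcription factor that glucocorticoids induce, had 2 UMIs in exercise, 44 UMIs in diabetic and 10 UMIs in none, a ratio of 0.137 (0.0161 to 0.526). Ldha, which turns pyruvate into lactate, had 5 UMIs in exercise, 89 UMIs in diabetic and 41 UMIs in none, a ratio of 0.170 (0.0538 to 0.411), and the mitochondrial superoxide dismutase Sod2 had 1 UMI in exercise, 37 UMIs in diabetic and 25 UMIs in none, a ratio of 0.0816 (0.00201 to 0.484). Nop58, Gnl3, Vapb, Khdrbs1, Cfdp1 and Psmb3 were also picked as lower, with 1 to 4 UMIs in exercise and 33 to 64 in diabetic. Of these, the ratio in adventitial cells was 0.614 for Ldha and 0.912 for Khdrbs1.

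Genes picked as higher in exercise besides Hspa1a had ratios from 1.62 to 2.47. They were Ogt, which adds N-acetylglucosamine to nuclear and cytosolic proteins, Mir99ahg and Neat1, which are noncoding RNAs, Resf1, Nktr, Mxra8, Srpx, Podn, Col14a1, Cd34 and Per3. Per3, a clock gene, was at 144 CPM in exercise, 68.2 CPM in diabetic and 31.5 CPM in none, so exercise was highest and none lowest, with a ratio of 2.11 (1.28 to 3.44) for exercise over diabetic and 2.17 (1.07 to 4.84) for diabetic over none. Of 7 measured clock genes, out of 16 listed, 6 lay above 0 for exercise over diabetic, with a median of 0.32, or 0.59 above that of all genes. Nr1d1 ran the other way at -1.03 on the log2 scale, from 8 UMIs in exercise and 50 in diabetic. It was at -0.98 without the carriers. All 7 lay above 0 for diabetic over none, with a median of 0.65, or 0.58 above that of all genes and 0.44 above it without the carriers. Adventitial cells had clock list medians of 0.18 for exercise over diabetic and 0.58 for diabetic over none. Other kept barcodes had 0.20 for exercise over diabetic and 0.72 for diabetic over none.

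Transcripts of the mitochondrial genome had medians of 1.37 for diabetic over none and 0.46 for exercise over diabetic, or 1.30 and 0.72 above those of all genes. The first was near that of adventitial cells (1.35) and of other barcodes (1.48). The second was -0.11 with the expected acinar RNA subtracted. The median mitochondrial share of UMIs per member, given above, ran in the same order.

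Set against none, exercise members had 78 genes at least 2-fold higher (5.26% of 1483) and 247 at least 2-fold lower (16.7%), and the median of all genes was -0.29. The small proteoglycans had a median of 0.77 and the state genes of parenchymal fibroblasts 0.60, while immediate early genes had -1.21 and chemokines -1.49. The comparisons share libraries, since each library enters a pair of them.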

How the data were processed

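The authors deposited raw UMI counts per gene and barcode for 3 pancreas libraries, 1 per group. Counting used Cell Ranger, version 6.1.2 per the file headers and 7.1.0 per the submitters' processing notes. The alignment's genome build is not stated in the sources used here. Gene identifiers and symbols matched GENCODE M21 (GRCm38), from which gene positions were taken. Totals were 45209034 UMIs in exercise, 80185752 in diabetic and 54128454 in none. In all, 61 barcodes occurred in both exercise and diabetic, 43 in both exercise and none, and 32 in both diabetic and none, with 0 among the members.

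The filters asked for 500 UMIs or more, 200 genes or more and no more than 20% of UMIs from mitochondrial genes. Doublets were not removed, because Scrublet (scanpy 1.11.5) marked 0% of barcodes by its automatic threshold. Leaving out the top 5% by its score was an alternative. UMIs were summed per library and class (168595 in exercise, 682157 in diabetic and 363954 in none for members) and scaled with TMM factors of edgeR 4.0.16 in R 4.3.3. Ratios of CPM carry exact conditional 95% intervals (Python 3.11.15, scipy 1.17.1), and log2 ratios use a prior count of 0.5. UMI intervals and floors cover counting error only. A gene counted as measured with at least 30 UMIs over both libraries and as different at 2-fold, and genes of the selection rule were left out. A list was described with at least 5 measured members and called apart when its median lay 0.5 or more from that of all genes. Acinar RNA expected per gene came from barcodes with at least 60% acinar-marker UMIs. The computation was tested on simulated counts.

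Named genes were the 12 highest and 12 lowest log2 ratios per comparison among genes that had, in the higher library, at least 30 UMIs from at least 5 cells, at least 50 CPM, no cell with over 50% of the UMIs, at least the CPM of other kept barcodes and at most 25% of UMIs expected from acinar RNA. Mitochondrial, ribosomal, haemoglobin, immunoglobulin and predicted genes were left out. Members of the 33 gene lists could be named too. Genes compared between both kinds of fibroblast and the promoter motif were chosen after values were seen. The members and the gene lists were chosen with earlier results of these data known.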

Additional observations from a re-analysis of the deposited data

Results flagged for a closer look

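In the ratio of diabetic over none, Fabp4, a fatty acid carrier of adipocytes, lay at -4.45 on the log2 scale in parenchymal cells and at 2.18 in adventitial cells. Essentially all of its UMIs in none members came from 1 cell, which also carried adipocyte markers, and without the carriers of B cell, mesothelial or adipocyte RNA the value was 3.86, from 45 UMIs in diabetic members and 1 in none members. Hp, the gene of haptoglobin, lay at -2.74 in parenchymal cells and at 2.69 in adventitial cells for diabetic over none, and 1 cell held 87% of its UMIs in none members. Without the same carriers Hp lay at -0.15 in parenchymal cells, short of 2-fold. Ifi27l2a lay at -1.16 in parenchymal cells and at 1.04 in adventitial cells for exercise over diabetic, from 4 UMIs in exercise members and 28 in diabetic members. With all members, both kinds of fibroblast passed 2-fold in opposite directions for these 3 genes, and the difference between them was not tested.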

How the results depend on the processing

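No paired analysis was possible because each group is 1 library, and leaving out a replicate was not possible for the same reason. The class's share of kept barcodes was 2.83% in exercise, 5.88% in diabetic and 5.64% in none over barcodes with at most 50% acinar UMIs. A rule of at least 12 UMIs from 5 genes gave 0.309% in exercise, 1.27% in diabetic and 0.851% in none, and one of at least 5 UMIs from 3 genes gave 0.593% in exercise and 1.98% in diabetic, with 41.6% of diabetic fibroblasts parenchymal. Thinning to 1000 UMIs, which left out shallower barcodes, gave 0.588% in exercise and 1.96% in diabetic. It gave parenchymal shares of fibroblasts of 46.3% in exercise, 56.3% in diabetic and 52.3% in none. Genes past 2-fold numbered 325 for exercise over none, 374 for exercise over diabetic and 297 for diabetic over none. In the same order of comparisons these were 109, 74 and 72 with a minimum of 100 UMIs, 1267, 1646 and 1461 with a minimum of 10 UMIs, and 100, 142 and 135 after thinning, since fewer or more genes were measured. With adventitial cells included they were 757 for exercise over none and 716 for diabetic over none. Of 1198 alternative list medians 4 changed sign among lists called apart: mitochondrially encoded genes for exercise over diabetic (-0.11 with acinar RNA subtracted), chemokines for diabetic over none (0.11 with a minimum of 100 UMIs, 0.14 thinned) and the BMP, Wnt and Hedgehog list for exercise over none (-0.11 with equal weight per cell). Single genes past 2-fold that changed sign for diabetic over none were Hyou1 (-0.28 thinned), Fabp4 (4.005 with 12 UMIs from 5 genes, 3.86 without B, mesothelial or adipocyte carriers, chosen after seeing the data), Hp (0.36 with 12 UMIs from 5 genes, 0.53 with adventitial cells) and Igfbp5 (1.07 without those carriers). For exercise over diabetic they were Igfbp5 (-0.35 thinned, -0.26 without cells with Ptprc or epithelial UMIs, -0.16 without those carriers), Clu (0.051 with adventitial cells), Ifi27l2a (1.09 with adventitial cells) and Il6 (0.83 with equal weight per cell). Without the carriers Mmp2, Cxcl14, Sfrp1, Zbtb16, Hp and Cav1 fell short of 2-fold for diabetic over none, and Igfbp5, Nr1d1 and Neat1 for exercise over diabetic. UMIs in none members went from 39 to 5 for Hp and from 31 to 3 for Cav1. They went from 60 to 59 for Mmp2 and from 10 to 9 for Zbtb16, and stayed at 193 for Cxcl14 and 43 for Sfrp1. All UMIs of none members went from 363954 to 298473. For Cxcl14 and Sfrp1, whose UMIs were unchanged in diabetic and none, only the scaling changed. The cause of the other changes was not tested. The medians of the immediate early, unfolded protein response and inflammatory lists for exercise over diabetic stayed below 0 in all 15 alternatives. The 66 exercise members limit precision: 3 UMIs there equal 14.4 CPM.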
